A study of Homo sapiens with 4 samples.

Results

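The 37 genes described here encode the transporters and enzymes that carry glucose into the cell and through glycolysis, the enzymes and kinases that set the fate of pyruvate, and the enzymes that build and break down glycogen. They were taken by name from a fixed list, and 36 of the 37 had a probe set that stands for that gene alone, out of 19890 genes with such a probe set on the array. The exception was GPI, glucose-6-phosphate isomerase, whose row also carries a second locus. The cells were SAS, an established line from an oral squamous cell carcinoma. In the knockdown group a retrovirus (vector pSINsi-hU6) carried a short hairpin RNA against SPINT1, and in the control group the same vector carried a scrambled hairpin. SPINT1 encodes HAI-1, a membrane-bound inhibitor of serine proteases. Both groups were therefore infected cells, grown in RPMI1640 with 10% FBS at 37 °C and 5% CO2, and each was measured on 2 Affymetrix arrays. The labels do not say whether the infected cells were clones or pools, or whether the arrays of a group came from separate cultures, so the tests measure the spread between these arrays only.

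The hairpins are shown because they define the groups. Both are 21 bases long and are identical at 9 positions when laid side by side.
HAI-1 target: gggcaggcatagacttgaagg
scrambled control: gggacggagatttcacgagga

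Glycolysis splits glucose into pyruvate. Hexokinase traps glucose as its phosphate, phosphofructokinase commits it to the pathway, and the lower enzymes recover ATP. Pyruvate then becomes lactate, which leaves the cell through monocarboxylate transporters, or enters the mitochondria through pyruvate dehydrogenase, which the PDK kinases switch off. Glucose phosphate can instead be stored as glycogen, made by glycogen synthase and branching enzyme and released by phosphorylase. Carcinoma cells commonly run glycolysis to lactate at a high rate, and many of these genes are textbook targets of the hypoxia-inducible factors.

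Values are MAS5 signals, which are linear intensities in arbitrary units, and "present" is the detection call deposited with each signal. Between 45.6% and 48.1% of probe sets were called present on each array. Log2 values correlated across probe sets at 0.983 for the pair of knockdown arrays and 0.986 for the control pair. The knockdown was read from the targeted gene first. SPINT1 gave 135 and 282 on knockdown arrays 1 and 2 against 1451 and 1445 on the control arrays. Its log2 change was -2.79 (SE 0.25, limma adjusted p = 5.7e-05), and 1 of the 2 knockdown arrays called it present. A second SPINT1 probe set was called present on no array and gave -0.11 (adjusted p = 0.78). Of the 10 squamous epithelial markers, 9 were called present on all 4 arrays, and their summed signals were 61952 and 71147 in the knockdown cells against 65925 and 63476 in the controls. Single markers moved apart within that sum: the keratins KRT14 and KRT5 rose by 4.06 and 1.39 on the log2 scale, and DSG3, a desmosomal cadherin, and SFN fell by 1.02 and 0.42. PTPRC, CD3E and TYROBP of the 6 leukocyte markers, VWF and KDR of the 5 endothelial markers, and COL1A2, DCN and PDGFRB of the 6 fibroblast markers were called present on none. In the same lists CD14 (leukocyte), CDH5 (endothelial) and FAP (fibroblast) were called present on all 4 arrays. LAPTM5, CDH5 and TEK rose by 1.34, 0.94 and 0.99 (limma adjusted p = 0.029, 0.023 and 0.03). FAP fell by 0.90 (adjusted p = 0.00034). LAPTM5 was bright enough to be tested only through the knockdown group. The summed signals of the fibroblast markers were 2181 and 2070 in the knockdown cells against 3888 and 3512 in the controls. The endothelial markers summed to 979.6 and 1345 against 655 and 636, and the leukocyte markers to 852 and 808 against 937 and 709. The part of these markers in the results was not tested. On arrays from whole cultures, fewer cells that express a gene and less of its RNA per cell cannot be told apart.

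Of the 36 genes, 35 were bright enough to be tested, with a mean signal of at least 58.9. In the knockdown cells 8 of them rose, none fell, and 27 did not pass the test (limma, two-sided, adjusted p threshold 0.05). At an unadjusted p under 0.05, 10 were higher and 0 lower. Over all 12593 genes tested, 19.4% were called, 8.79% higher and 10.6% lower. The genes that rose were the glucose transporters SLC2A1 and SLC2A3, hexokinase HK2, the regulator PFKFB3, the glycolytic enzymes PGK1 and ENO2, and the glycogen enzymes GBE1 and GYS1. The median log2 change of the 35 was 0.20, beside 0.02 over all genes tested. SLC2A3 and ENO2 passed the brightness filter through the knockdown group only, so they could enter the test only by being higher there, and the other 6 did not depend on this. In 23 of the 35 genes both knockdown arrays lay above both control arrays, in 3 both lay below, and in 9 the groups overlapped. Over all genes 32.2% lay wholly above and 29.5% wholly below. Without knockdown array 1, 14 genes of the set were called higher, and without the smoothing of variances over signal only 2 were, PFKFB3 and ENO2.

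**Figure D1:**
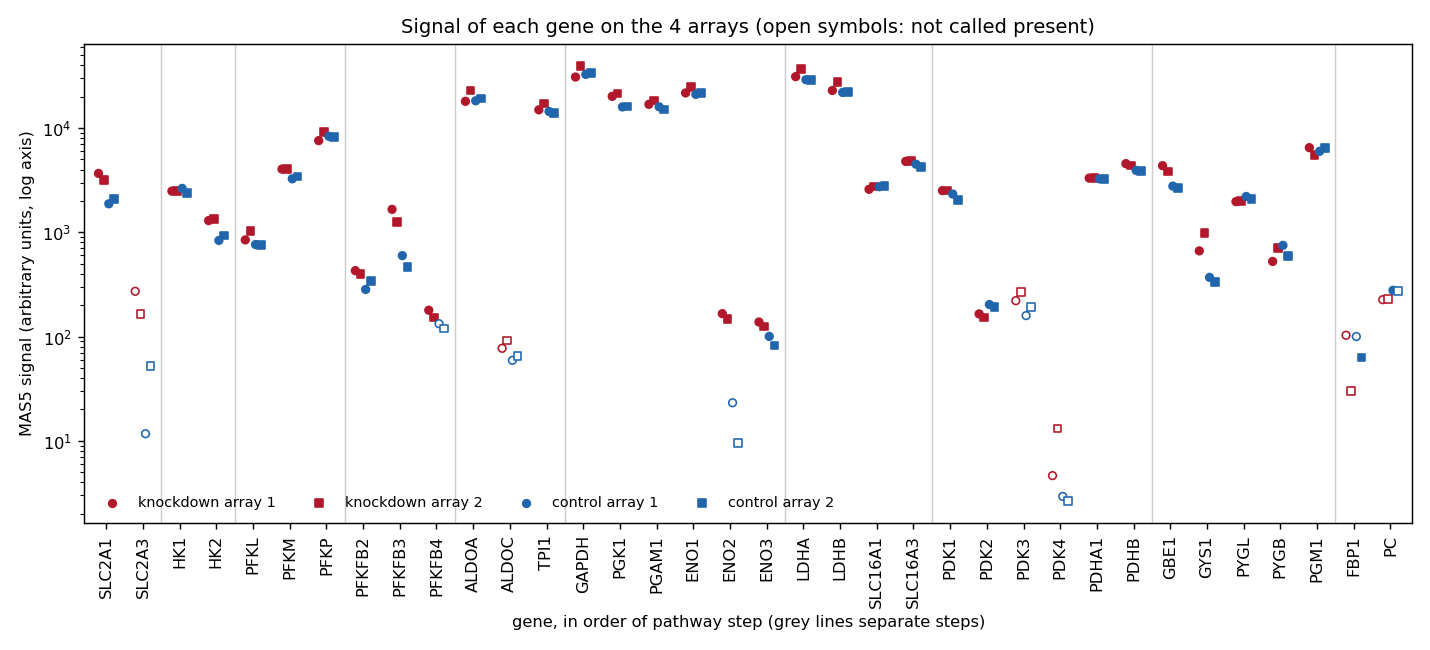
MAS5 signal (arbitrary units, log axis) of 36 genes in order of pathway step, with circles and squares for arrays 1 and 2 of the knockdown (red) and control (blue) groups and open symbols where the probe set was not called present. The groups stand apart for PFKFB3, GYS1 and SLC2A1 and lie close together for most of the brightest genes; heights of different genes are not comparable, since each has its own probes.

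Of the glucose transporters, SLC2A1 and SLC2A3 are in the set, and both rose. SLC2A1 encodes GLUT1, the transporter that most cells rely on for basal glucose uptake (probe set on chr1:43164105-43197088, minus strand, in the deposited alignments, whose genome build is not given in the sources used here). It gave 3675 and 3198 in the knockdown cells and 1878 and 2088 in the controls. The groups did not overlap, and the log2 change was 0.79 (SE 0.12, adjusted p = 0.0011). SLC2A3 encodes GLUT3, a transporter of high affinity best known from neurons. Its brightest probe set read 272 and 165 against 11.7 and 52.6 (log2 change 2.39, SE 0.44, adjusted p = 0.0044) but was called present on no array, so no fold is given. A second probe set was detected, that is called present, in both knockdown samples and neither control. It read 145 and 247 against 39.4 and 45.6, at least 3.52-fold higher (log2 change 1.82, adjusted p = 0.0041). This bound sets the knockdown mean against the higher of the control signal and the lowest signal called present on that array. SLC2A3 has a near-identical neighbour, SLC2A14, and 2 further probe sets that match both gave log2 changes of 1.84 (adjusted p = 0.0029) and 1.15 (adjusted p = 0.071). All of these SLC2A3 probe sets passed the brightness filter through the knockdown group only, so their p-values are no independent support for the change.

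At the first phosphorylation step HK2 rose and HK1 was not called. HK2, the hexokinase that is low in most adult tissues and high in many tumours, gave 1296 and 1347 in the knockdown cells and 836 and 935 in the controls. The groups were apart by 0.57 on the log2 scale (SE 0.12, adjusted p = 0.0097). Without control array 1 the change was 0.49 and no longer passed (adjusted p = 0.11). A second probe set labelled HK2, aligned to the strand opposite the gene, gave -0.62 and overlapped between groups (adjusted p = 0.42). HK1, the widely expressed hexokinase, gave 2486 and 2489 against 2639 and 2386. Its log2 change was -0.01, with a 95% interval from -0.25 to 0.22. Whether the change of HK2 differed from that of HK1 was not tested. The row shared by GPI, which turns glucose 6-phosphate into fructose 6-phosphate, read 5428 and 6933 against 4882 and 4511 (log2 change 0.39, adjusted p = 0.067).

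The 3 phosphofructokinase subunits were not called, whereas one enzyme that makes their activator was. PFKL, PFKM and PFKP, the liver, muscle and platelet subunits, differed by 0.29, 0.27 and 0.01 on the log2 scale (adjusted p = 0.19, 0.10 and 0.96). PFKM read 4040 and 4031 against 3262 and 3432, groups that did not overlap. PFKFB3 makes fructose 2,6-bisphosphate, the strongest known allosteric activator of phosphofructokinase, and its kinase activity far exceeds its phosphatase activity. It gave 1661 and 1264 in the knockdown cells against 598 and 466 in the controls (chr10:6285127-6317507, plus strand, deposited alignments). This was a 2.69-fold rise, or 1.43 on the log2 scale (SE 0.17, adjusted p = 0.00028), with the lowest knockdown array above the highest control array. PFKFB2 and PFKFB4, which make the same activator, were not called. PFKFB2 read 429 and 400.0 against 283 and 343 (log2 change 0.39, adjusted p = 0.16). PFKFB4 read 179 and 153 against 133 and 119.8 (0.36, adjusted p = 0.37) and was not called present on the control arrays.

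In the middle of the pathway no gene passed. Aldolase A (ALDOA) gave 18061 and 23014 against 18269 and 19177, and its log2 change of 0.12 came with overlapping groups (adjusted p = 0.58). ALDOC, the brain aldolase, was called present on no array (77.2 and 91.5 against 59.2 and 64.8, log2 change 0.36, adjusted p = 0.51). Triosephosphate isomerase (TPI1) gave 14966 and 17211 against 14424 and 13954 (log2 change 0.18, adjusted p = 0.33), with the groups apart.

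Among the lower enzymes PGK1 and ENO2 rose, and GAPDH, PGAM1, ENO1 and ENO3 were not called. PGK1, phosphoglycerate kinase, makes the first ATP of the pathway. It read 20159 and 21389 in the knockdown cells against 15957 and 16070 in the controls (chrX:77246414-77268417, plus strand, deposited alignments). The log2 change was small, 0.37 (SE 0.11, adjusted p = 0.039). Its 3 other tested probe sets rose by 0.45, 0.62 and 0.46 (adjusted p = 0.013, 0.0025 and 0.015), each with the groups apart. The brightest one lost its call without control array 1 (adjusted p = 0.35), without control array 2 (0.31), with the replicate number as a block (0.056), with no filter (0.14), with no variance trend (0.16) and with arrays centred on all probe sets (0.10). Of the other 3, 2 also lost theirs without either control array (adjusted p from 0.055 to 0.18) and with no filter, and all 3 with no variance trend (0.07 to 0.13), while all 3 kept theirs with the block and with that centring. ENO2, the enolase named for neurons, was detected in the knockdown cells, at 166 and 148, and in neither control, at 23.2 and 9.56. It was at least 5.23-fold higher (log2 change 2.45, SE 0.39, adjusted p = 0.0017). ENO2 passed the brightness filter through the knockdown group only, so this p-value is no independent support for the change. The abundant ubiquitous enolase, ENO1, gave 21723 and 24637 against 21054 and 21725 (log2 change 0.11, adjusted p = 0.56), and the muscle form, ENO3, gave 138 and 125 against 100.4 and 82.1 (0.46, adjusted p = 0.30). GAPDH, often used as a reference gene, gave 30885 and 39623 against 32728 and 33974 (log2 change 0.07, adjusted p = 0.79). Phosphoglycerate mutase, PGAM1, gave 16895 and 18453 against 15986 and 15022 (0.19).

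The brightest genes also differed between the 2 knockdown arrays. In the 8 genes with a mean signal of at least 10000 (ALDOA, TPI1, GAPDH, PGK1, PGAM1, ENO1, LDHA and LDHB), knockdown array 2 lay above knockdown array 1 by 0.09 to 0.36 on the log2 scale. Over all 916 probe sets that bright the median gap between the knockdown arrays was 0.20, against 0.03 between the control arrays. When knockdown array 1 was left out, ALDOA, TPI1, GAPDH, PGAM1, LDHA and LDHB also passed the test, with log2 changes between 0.25 and 0.35, and PGK1 passed at 0.42. ENO1 did not pass (adjusted p = 0.065). Without knockdown array 2 the changes of ALDOA and GAPDH were -0.05 and -0.11. The part of this array difference in the results was not tested.

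**Figure D2:**
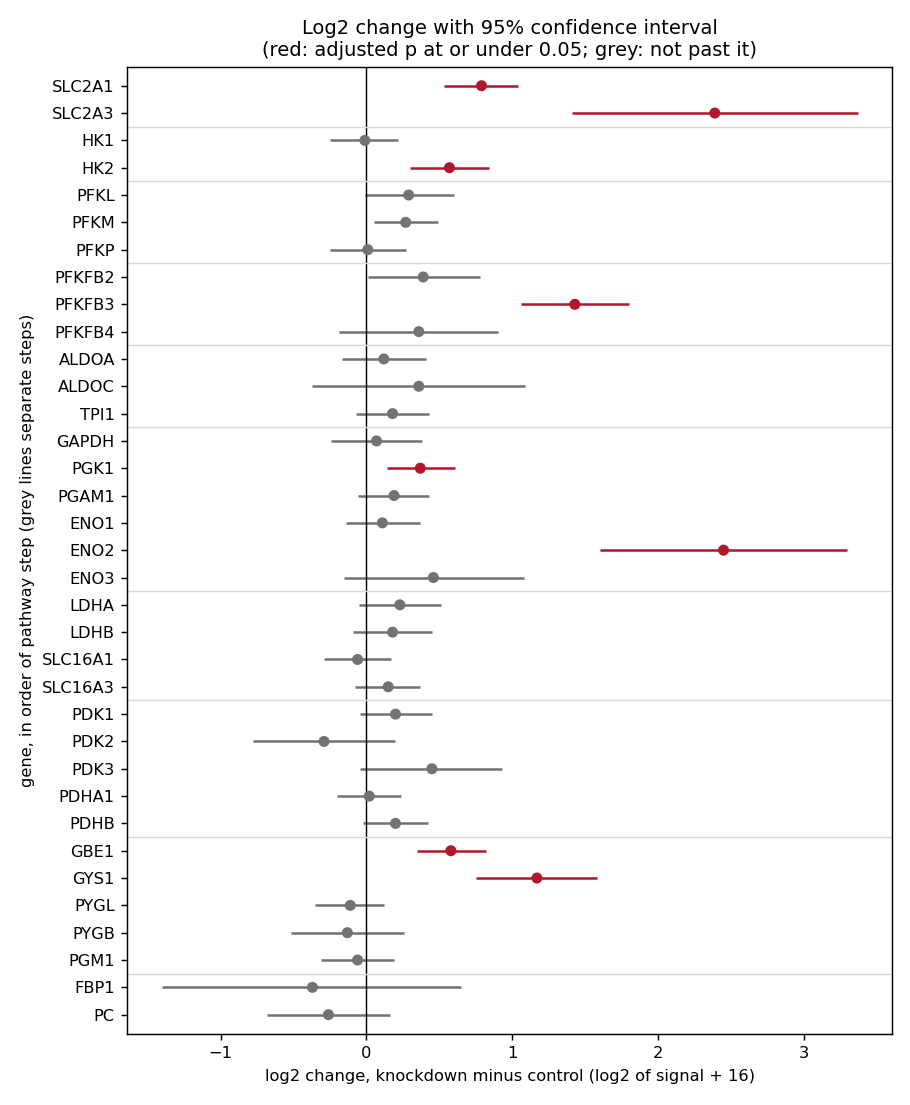
Log2 change, knockdown minus control, of the 35 tested genes in order of pathway step, with points for the estimate, bars for its 95% confidence interval, and red for genes past the adjusted threshold. The 8 red genes all lie right of 0, from PGK1 at 0.37 to ENO2 at 2.45, and the intervals of most grey genes include 0.

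No gene of lactate production or export was called. LDHA, the lactate dehydrogenase subunit that favours lactate, read 31124 and 37073 in the knockdown cells and 29105 and 28863 in the controls. The groups were apart, but the log2 change of 0.23 had an interval from -0.05 to 0.51 (adjusted p = 0.26). LDHB, the heart subunit, gave 22944 and 27498 against 21985 and 22297 (0.18). The lactate transporters MCT1 (SLC16A1) and MCT4 (SLC16A3) had log2 changes of -0.06 and 0.15. SLC16A1 read 2587 and 2743 against 2740 and 2802, overlapping, and its 4 other tested probe sets gave between 0.02 and 0.47, none called.

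The pyruvate dehydrogenase genes were likewise not called. PDK1, a kinase that shuts pyruvate dehydrogenase and a common hypoxia marker, gave 2511 and 2522 against 2331 and 2045 (log2 change 0.20, adjusted p = 0.25). PDK2 gave 165 and 153 against 203 and 193, both knockdown arrays below both controls (-0.29, adjusted p = 0.43). A second PDK2 probe set, called present on no array, went the other way, at 149 and 138 against 116 and 126 (0.22, adjusted p = 0.61). PDK3 gave 221 and 268 against 159 and 191 (0.45, adjusted p = 0.21), and its second probe set, called present on all arrays, gave 0.49 (adjusted p = 0.17). PDK4 was called present on no array, with signals from 2.66 to 13.1, and was not tested. The enzyme's own subunits PDHA1 and PDHB had log2 changes of 0.02 and 0.20. PDHA1 read 3312 and 3300 against 3258 and 3265, but its probe sets disagreed, since a dimmer one gave -0.52 with the groups apart (adjusted p = 0.078).

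Both glycogen-building enzymes rose, and neither phosphorylase was called. GYS1, the muscle-type glycogen synthase found in most tissues, lengthens the glucose chain. It read 664 and 987 in the knockdown cells against 369.9 and 335 in the controls (chr19:54163199-54188343, minus strand, deposited alignments). The change was 2.24-fold, 1.17 on the log2 scale (SE 0.19, adjusted p = 0.0020), and it stayed between 0.89 and 1.45 in the 16 other settings tried. GBE1, which adds the branches, read 4359 and 3846 against 2777 and 2674 (chr3:81621547-81893435, minus strand). Its log2 change was 0.58 (SE 0.11, adjusted p = 0.0044), and the groups did not overlap. Without control array 2 it was 0.56 and just missed the threshold. The liver and brain phosphorylases, PYGL and PYGB, which release glucose from glycogen, had log2 changes of -0.11 and -0.13. PYGL read 1971 and 1999 against 2207 and 2090, below the controls on both arrays, and PYGB read 526 and 709 against 749.9 and 597, overlapping. PGM1, which links glycogen to glycolysis, gave 6488 and 5496 against 5985 and 6481 (-0.06).

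The 2 genes of the opposing route, gluconeogenesis, were dim. FBP1, which reverses the phosphofructokinase step, read 103 and 30 against 100.1 and 62.9 (log2 change -0.37, adjusted p = 0.64). PC, pyruvate carboxylase, read 226 and 229 against 278 and 272 (-0.26, adjusted p = 0.41), with both knockdown arrays below both controls.

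Other probe sets of the same genes were read as a second measurement. Some, that of HK2 among them, align to the strand opposite the gene and so may not measure the same RNA. Of 78 probe sets for the 36 genes, 42 were not the brightest of their gene. Of these, 28 were bright enough to test, for 17 genes. The test called 4 of them higher (3 of PGK1 and 1 of SLC2A3) and 0 lower, beside 7.33% higher and 8.32% lower of all 27307 probe sets tested (15.6% in either direction), and 21 of the 28 had the sign of the brightest probe set. HK2, PDK2 and PDHA1, above, were among the genes whose probe sets disagreed.

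**Figure D3:**
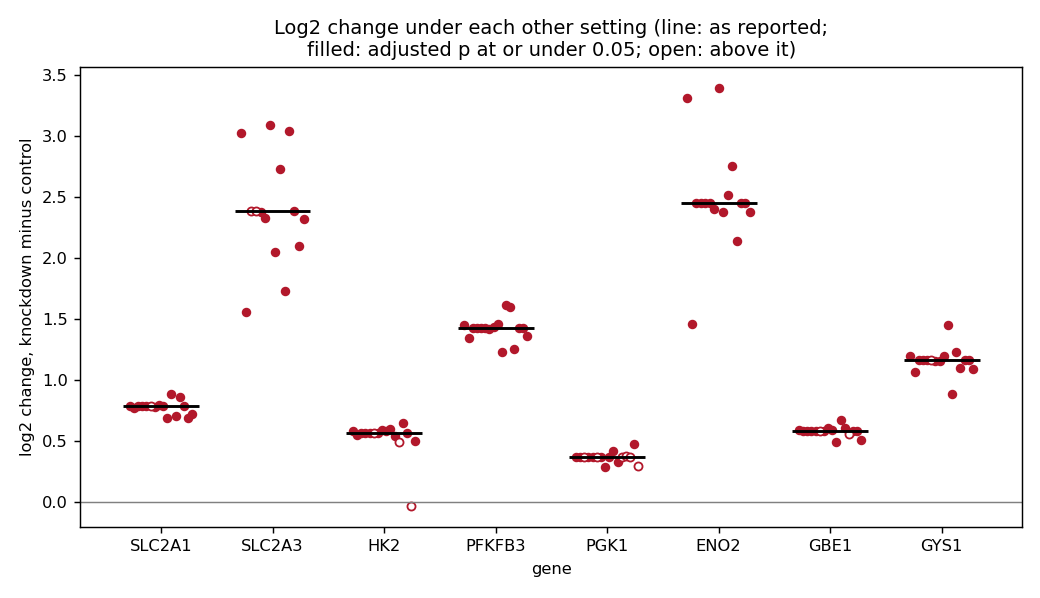
Log2 change, knockdown minus control, of the 8 genes that rose, under each other processing setting (points, filled at an adjusted p of 0.05 or less and open above it) beside the value as reported (black line). PFKFB3 and ENO2 were past the threshold in every setting that tested them, PGK1 in 10 of 16, and HK2 changed sign in the setting that averaged its probe sets (-0.03).

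The promoters of these genes were searched for the core letters of the hypoxia response element, because several of the genes that rose are known targets of the hypoxia-inducible factors. Windows of 300 bases, from 250 before to 50 after each annotated start, came from RefSeq on GRCh38.p14, and 34 of the 37 genes had one (SLC2A3, SLC16A1 and PFKFB2 were not found in the table). The motif ACGTG, on either strand, was in 24 of 67 windows (35.8%), against 21.4% of all 35116 windows. It was in 6 of 9 windows (66.7%) of the genes that rose and 17 of 56 (30.4%) of those not called. Counted by gene with a window, ACGTG was in 5 of 7 that rose, 14 of 25 not called and 6790 of 27305 in all. The windows also differed in base composition. The median GC content was 71.7% for the genes that rose, 66.2% for those not called and 58.7% for all windows. The motif GCGTG, searched in the same way, was in 77.8%, 37.5% and 36.5% of windows, in the same order. By gene, GCGTG was in 6 of 7 that rose, 18 of 25 not called and 11077 of 27305 in all. Windows of one gene are not independent, the motif was chosen with the calls known, and a match is not a binding site. The 5 windows below are shown on the gene's strand with ACGTG and its reverse complement CACGT in capitals (CACGTG counts on both strands). The first 4 belong to genes that rose and the last, LDHA, to a gene that was not called.
PFKFB3, chr10:6202682-6202981 (+): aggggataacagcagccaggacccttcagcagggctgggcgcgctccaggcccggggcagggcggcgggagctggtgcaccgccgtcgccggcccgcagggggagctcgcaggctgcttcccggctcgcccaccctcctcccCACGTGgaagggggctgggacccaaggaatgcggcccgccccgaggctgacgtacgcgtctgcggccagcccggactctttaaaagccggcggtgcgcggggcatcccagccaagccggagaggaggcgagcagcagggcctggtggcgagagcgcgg
PGK1, chrX:78103998-78104297 (+): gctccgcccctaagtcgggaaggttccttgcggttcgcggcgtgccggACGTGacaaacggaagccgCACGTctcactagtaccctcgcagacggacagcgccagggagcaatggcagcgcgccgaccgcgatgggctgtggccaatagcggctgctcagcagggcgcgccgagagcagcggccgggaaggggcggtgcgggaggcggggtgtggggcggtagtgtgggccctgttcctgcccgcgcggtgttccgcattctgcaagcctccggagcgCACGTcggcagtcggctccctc
ENO2, chr12:6914330-6914629 (+): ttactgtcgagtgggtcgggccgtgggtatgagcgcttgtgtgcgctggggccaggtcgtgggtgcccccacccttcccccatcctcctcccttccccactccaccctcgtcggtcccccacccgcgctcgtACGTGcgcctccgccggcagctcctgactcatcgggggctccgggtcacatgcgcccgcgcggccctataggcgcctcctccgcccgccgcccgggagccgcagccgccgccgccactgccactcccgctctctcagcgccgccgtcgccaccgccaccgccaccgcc
GBE1, chr3:81761596-81761895 (-): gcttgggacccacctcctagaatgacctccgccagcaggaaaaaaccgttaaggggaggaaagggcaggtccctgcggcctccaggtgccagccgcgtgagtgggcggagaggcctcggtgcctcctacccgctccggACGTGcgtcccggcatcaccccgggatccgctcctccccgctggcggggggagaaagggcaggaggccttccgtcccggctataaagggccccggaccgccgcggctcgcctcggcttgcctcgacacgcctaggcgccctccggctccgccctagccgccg
LDHA, chr11:18394313-18394612 (+): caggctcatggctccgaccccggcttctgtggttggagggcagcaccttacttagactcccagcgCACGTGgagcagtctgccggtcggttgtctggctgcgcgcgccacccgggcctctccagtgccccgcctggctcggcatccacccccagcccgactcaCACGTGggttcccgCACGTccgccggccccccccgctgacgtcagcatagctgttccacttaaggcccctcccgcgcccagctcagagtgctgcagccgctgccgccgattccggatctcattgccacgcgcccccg
In the windows shown, LDHA held 5 matches, PGK1 held 3, PFKFB3 held 2, and ENO2 and GBE1 held 1 each. LDHA and PFKFB3 each have a further window, not shown, which held 0. HK2, which rose and is not shown, held 2 and 4 in its 2 windows. ACGTG was absent from the windows of SLC2A1 and GYS1, which both rose, but GCGTG had 1 match in SLC2A1 and 2 in GYS1.

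Regulators of the pathway and its neighbours were read in the same fit. HIF1A, the oxygen-regulated subunit, gave a log2 change of 0.10 (adjusted p = 0.61), and MYC, another activator of glycolytic genes, gave 0.00 with an interval from -0.25 to 0.25. Of 24 tested regulators 5 rose and 0 fell, beside 8.79% higher and 10.6% lower over all genes tested. EPAS1, the second hypoxia-inducible subunit, rose by 0.40 (adjusted p = 0.034), EGLN3, a prolyl hydroxylase that marks these subunits for breakdown and is itself a hypoxia target, by 1.30 (adjusted p = 0.0023), and VHL, part of the ligase that breaks them down, by 0.78 (adjusted p = 0.017). FOXO1 rose by 0.61 and PRKAB2, a subunit of AMP-activated kinase, by 0.45. Messenger levels alone were measured, not protein.

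Of 97 tested genes in the other lists, these regulators included, 11 rose and 13 fell, shares near the 8.79% and 10.6% over all genes tested. PKM, pyruvate kinase, the last step of glycolysis, rose by 0.52 (adjusted p = 0.041), with signals of 2057 and 2936 against 1709 and 1714. BSG, the chaperone of lactate transporters, rose by 0.38 (adjusted p = 0.042). SLC16A7, the transporter MCT2, read 111 and 26.4 against 354 and 280.3 and fell by 2.17 on the log2 scale (adjusted p = 0.0062). Of the glucose transporters, SLC2A6 and SLC2A9 fell by 1.02 and 1.23. GPD2, the mitochondrial glycerol phosphate dehydrogenase, fell by 1.05 and BPGM, which makes 2,3-bisphosphoglycerate, by 0.80. In the glycogen list GYG1, the primer of glycogen, rose by 0.43 and PPP1R3B, which targets a phosphatase to glycogen, by 0.94, whereas PGM2 fell by 1.08. G6PC3, a glucose-6-phosphatase, fell by 0.51.

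Genes near each other on the chromosome were compared because the expression of neighbouring genes differed together between the groups along some stretches. For each gene the median log2 change of tested probe sets of other genes within 2 Mb was taken, on the deposited alignments. Of the 35 tested genes of the set, GBE1 had no tested neighbour and so no median. For the others this median lay between -0.25 (PFKP) and 0.29 (PGK1, on 5 probe sets). PGK1 itself rose by 0.37. The neighbours of PFKFB3, GYS1, ENO2, SLC2A3, HK2 and SLC2A1 had medians of 0.08, 0.07, 0.07, 0.02, 0.03 and -0.03. By contrast the neighbours of PGM2, IDH3G, SLC2A9, OGDH and SDHA, all of which fell, had medians of -0.77, -0.74, -0.70, -0.68 and -0.59. The neighbours of VHL had a median of 0.53. The part of these stretches in the changes of single genes was not tested.

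**Figure D4:**
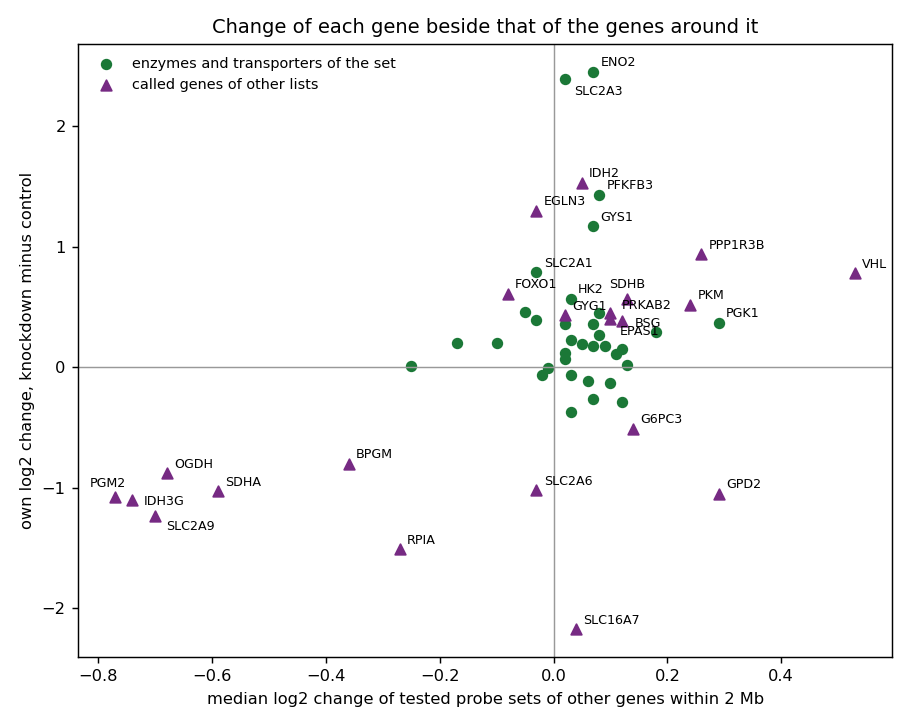
Own log2 change, knockdown minus control, of the tested genes of the set (green circles) and of the named called genes of the other lists (purple triangles), against the median log2 change of tested probe sets of other genes within 2 Mb. The green genes lie between -0.25 and 0.29 on the horizontal axis, while 5 fallen genes of other lists lie at -0.59 or below. GBE1, which had no tested neighbour, is not plotted.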

How the data were processed

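RNA of 2 knockdown and 2 control samples of SAS cells, labelled from 6 µg of total RNA, was read on 1-colour Affymetrix arrays. The deposited intensities are MAS5 signals (no version is named), per the submitters' processing notes, and the authors scaled each array to a 2%-trimmed mean of about 500. The deposited detection p-values and present calls were kept. In the deposited log2 columns each row has its median over the arrays subtracted, and these served as an alternative only. Which genome build the deposited alignments use, and which software took the logs, is not stated there.

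Signals were analysed as log2(signal + 16), which understates the change of dim genes. Of 54613 probe sets outside the 62 array controls, the 27307 with a mean signal of at least 58.9, the median, were tested with limma 3.58.1 in R 4.3.3 (lmFit, then eBayes with a variance trend, two-sided, Benjamini-Hochberg over all tested, threshold 0.05). Of these 15.6% were called. No scaling between arrays was added. A gene's value is its brightest probe set among rows that carry that gene alone. With 2 arrays a group the smallest exact permutation p is 0.333, so no such test was used. The number of arrays limits the precision. The fit was tested on simulated data. All 37 genes of the set were named, and from each other list the called genes, at most 5, by moderated statistic, plus HIF1A and MYC. The members and lists were chosen with earlier results of these data known. A few genes of the other lists are not reported here.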

Additional observations from a re-analysis of the deposited data

How the results depend on the processing

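The 16 other settings changed the pseudocount (1 or 64), the brightness filter, the variance model, the scaling, the log2 scale, the probe set rule, the replicate block and the arrays used. Of the 8 genes of the set that rose, PFKFB3 and ENO2 stayed past the threshold in every setting that tested them. ENO2 was tested in 15 of the 16 and met the brightness filter through the knockdown group only. No gene of the set was called lower in any setting. Of the 27 not called, 6 passed in at least 1 setting. The 4272 called probe sets became 2212 with no filter and 1491 with no variance trend, and ranged from 2164 (without control array 1) to 4719 (without knockdown array 2), with 2444 without control array 2. The 8 genes called higher became 2 with no variance trend, which lost SLC2A1, SLC2A3, HK2, PGK1, GBE1 and GYS1 (adjusted p from 0.056 for SLC2A1 and GYS1 to 0.16 for PGK1), and ranged from 6 to 14 with 1 array left out. The 24 called genes of the other lists became 13 with no filter and 9 with no variance trend, and ranged from 14 to 27 with 1 array left out. SPINT1 passed in every setting, at -3.27 to -1.45.

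HK2 was the one gene that rose and also turned sign in a setting, and the other turned signs were of genes not called. Quantile normalization gave 0.02 for HK1, -0.01 for PFKP and -0.03 for GAPDH. The mean over probe sets gave -0.03 for HK2, 0.16 for SLC16A1 and -0.11 for PDHA1. For HK2 that mean includes the probe set aligned to the opposite strand. With 1 array left out in turn the changes ranged from -0.09 to 0.06 for HK1, from -0.13 to 0.15 for PFKP, from -0.05 to 0.30 for ALDOA, from -0.11 to 0.25 for GAPDH, from -0.34 to 0.08 for PYGB, from -0.18 to 0.06 for PGM1 and from -1.06 to 0.31 for FBP1. The turned signs came without control array 1 for HK1, without knockdown array 1 (0.08) or control array 1 (0.03) for PYGB, and without knockdown array 2 for the others. Centring on the median of all probe sets, chosen after seeing the data, gave -0.06 for PFKP, -0.0023 for GAPDH and -0.05 for PDHA1. It also moved the calls to 1524 higher and 2823 lower (35.1% higher, against 46.8% as reported) and left 7 genes of the set called. The cause was not tested.

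Replicate numbers are shared by the groups, but the labels tie them to no batch, and the deviations of same-numbered arrays correlated at -0.02. With the replicate block 4581 probe sets, 7 genes of the set and 25 genes of the other lists were called, PGK1 being lost. The alternative on the deposited log2 columns was first run without the variance trend, which changed a second choice at once and gave fewer calls, and the values given here are with the trend. MAS5 had already subtracted background, so that step could not be varied. The signals of dim genes, and changes under about the gap between arrays of a group, are limited by having 2 arrays a group.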

Other observations

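Genes of 2 pathways that draw on glycolysis were read in the same fit. In the pentose phosphate pathway, which makes NADPH and ribose from glucose phosphate, 0 of 9 tested genes rose and 2 fell (limma, all genes: 8.79% higher, 10.6% lower). RPIA, ribose-5-phosphate isomerase, read 502 and 483 in the knockdown cells against 1395 and 1461 in the controls and fell by 1.51 on the log2 scale (adjusted p = 3.3e-05). The tested neighbours of RPIA within 2 Mb had a median log2 change of -0.27, on 10 probe sets.

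In the citric acid cycle 2 of 19 tested genes rose and 4 fell, beside 8.79% higher and 10.6% lower over all genes tested. IDH2, the mitochondrial isocitrate dehydrogenase that uses NADP, read 1375 and 1618 against 498 and 511 (log2 change 1.53, adjusted p = 4.1e-05), with a neighbour median of 0.05. IDH3G, a subunit of the NAD-dependent enzyme, read 1126 and 1240 against 2579 and 2512 and fell by 1.10 (adjusted p = 0.00012), with a neighbour median of -0.74. Of the succinate dehydrogenase subunits, SDHA read 3854 and 4251 against 8066 and 8476 and fell by 1.03, with a neighbour median of -0.59. SDHB read 2927 and 2846 against 1939 and 1939 and rose by 0.57 (adjusted p = 0.0039), with a neighbour median of 0.13. OGDH fell by 0.88, with a neighbour median of -0.68. The part of these chromosome stretches in the changes was not tested.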
